A study of Mus musculus with 6 samples.

Results

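Spint1 encodes a membrane-anchored inhibitor of serine proteases, and it was followed here together with the partners it is known to act with: its paralog Spint2, the proteases St14, Prss8, Hgfac and Hpn, the growth factor Hgf and its receptor Met. These 8 genes were picked by name from a table of 48526 genes, and 7 of the 8 were among the 20101 genes that the authors tested. Prss8 was read too rarely to be tested. Spint1 was chosen because of its rise in the same comparison, so its own fold change is a description and carries no test here.

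The 6 RNA-seq libraries came from oligodendrocyte precursor cells (OPCs), the dividing glia that make myelin-forming oligodendrocytes, sorted from mouse forebrain at postnatal day 6 by YFP and by the DNA dye Hoechst. The 3 ctrl samples carried CNP1::Cre and a conditional Rosa26stopflox-YFP reporter, and the 3 Ep400 cko samples carried the same Cre and reporter plus a conditional Ep400 allele. Both groups had a mixed 129SvJ/C57Bl/6J background, so Cre and YFP were shared by all samples and only the conditional Ep400 allele set the groups apart in the labels. Cre is driven from Cnp, a gene of the oligodendrocyte lineage, and the YFP gate selects cells with a recombined reporter, not cells shown to have lost Ep400. Ep400 is an ATPase that remodels chromatin.

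Kunitz-type inhibitors such as Spint1 and Spint2 sit on the cell surface and block trypsin-like proteases by occupying their active sites. Matriptase (St14), prostasin (Prss8), hepsin (Hpn) and the HGF activator (Hgfac) are among the proteases they block. Matriptase, hepsin and the HGF activator can cleave the inactive precursor of hepatocyte growth factor (Hgf), and only the cleaved form activates the receptor tyrosine kinase Met. Spint1 is best known from epithelia and placenta. Hgf and Met are also expressed in glia and neurons.

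The values are from the authors' deposited table, which gives for each gene a mean normalised read count over the 6 libraries, a log2 fold change of Ep400 cko over ctrl that is moderated towards 0, its standard error (SE), and a p-value adjusted by Benjamini and Hochberg's method (DESeq2). The whole reads of each library were worked out from these values for 7 of the 8 genes. The libraries are called ctrl a, b and c and Ep400 cko a, b and c by falling scale factor within each group. These letters are not the replicate numbers of the samples. Normalised reads are reads divided by the library's relative depth, and the factors that turn 1 into the other ran from 0.967 to 1.122. The deposited means sum to 80407433 normalised reads. The labels call the samples biological replicates.

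The markers of the sorted cells bear on how these bulk values can be read, since fewer cells of a type and less RNA per cell cannot be told apart. OPC genes were abundant in the authors' deposited table, with a mean of 19690.5 normalised reads for Pdgfra, 27373.7 for Sox10, 116425 for Gpr17 and 352288 for Ptprz1, which radial glia also express. Genes of other cells were abundant too, with 318172 for the astrocyte transporter Slc1a3 and 129373 for the microglial receptor Csf1r. The counts of markers that follow stand against 12.2% of all tested genes that passed, 7.64% as higher and 4.61% as lower. Of 12 markers of astrocytes and radial glia, 10 passed the test as higher in Ep400 cko and 0 as lower, and their summed level was 2.58 times that of ctrl. Of 12 markers of mural cells and fibroblasts, 0 passed as higher and 9 as lower, and the summed level was 0.547 times that of ctrl. Microglial and macrophage markers passed 0 up and 4 down of 12 (summed ratio 0.707), oligodendrocyte markers 1 up and 1 down of 11 tested (0.357), endothelial markers 0 up and 2 down of 12 (0.834) and neuronal markers 3 up and 0 down of 12 (1.16). Where reads per library are not known, the summed levels take reads as even within each group. The oligodendrocyte sum leaves out Cnp, which has no group level, and includes Mobp, which was not tested. Reads of this list could be uneven: in ctrl a, b and c Opalin held 15, 30 and 149 and Ermn 2, 0 and 82. OPC markers passed 2 up and 2 down of 11 tested, with a median deposited log2 fold change of -0.41 and 2 of 11 above 0. Their summed ratio was 1.37 with Ptprz1 and 0.722 without it. Both of these OPC sums include Neu4, which was not tested. Ependymal and choroid plexus markers passed 0 up and 4 down of 12, and their summed ratio was 1.80 with the most abundant member and 0.672 without it. Of 10 mast cell and blood markers 4 passed as higher and 0 as lower, and all 4 are genes of red blood cells. With no filter on low means 2 of those 4 passed, and with a length and GC trend removed 0 endothelial, 2 ependymal and choroid plexus and 1 oligodendrocyte marker passed. None of these markers was at 0. The part that such shifts have in the values below was not tested. Ep400 itself had a mean of 12048.1 normalised reads and a deposited log2 fold change of 0.01 ± 0.17 (SE; adjusted p = 0.97), a count over the whole gene that does not resolve which exons were read.

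Spint1 (ENSMUSG00000027315; mm10 chromosome 2, 119237362 to 119249527, plus strand) went from a handful of reads to a well-read gene. The ctrl libraries a, b and c held 8, 6 and 12 reads, and the Ep400 cko libraries a, b and c held 835, 470 and 938. The groups lie far apart: the lowest Ep400 cko library had 38.8 times the normalised reads of the highest ctrl library. Normalised reads averaged 8.51 ± 3.38 (SD, n = 3) in ctrl and 766 ± 256 (SD, n = 3) in Ep400 cko, a 90.1-fold ratio of the means. In the authors' deposited table the log2 fold change was 5.17 ± 0.32 (SE; adjusted p = 1.05e-54), which corresponds to 36.0-fold because the table's changes are moderated. It had the highest Wald statistic of all tested genes and ranked 2 by log2 fold change. Within Ep400 cko, library b held the fewest Spint1 reads, and a and c were close to each other.

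**Figure D1:**
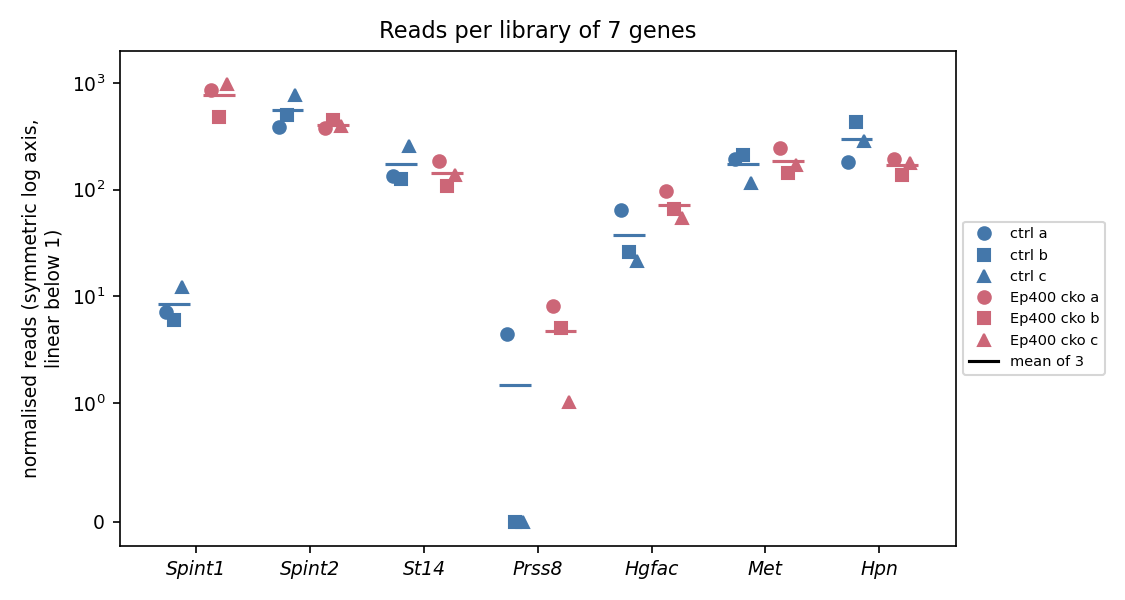
Normalised reads per library (symmetric log axis, linear below 1) of the 7 genes whose reads could be worked out, with ctrl in blue, Ep400 cko in red and a bar at the mean of 3. Spint1 is the gene whose groups lie apart, at 6.04 to 12.4 in ctrl and 479 to 970 in Ep400 cko, and the points of both groups overlap for each of the other 6.

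GENCODE M21 lists 5 transcripts of Spint1, of which 3 are protein-coding, and those 3 start within 191 bases of each other. The deposited count is per gene and does not tell these starts apart. The 251 bases that end at the RefSeq start of Spint1 (GRCm38.p6, chr2:119237110-119237360, plus strand) are shown because they lie just before the first annotated start of the gene that changed; which start was used is not known from these files. Capitals mark matches to the GC box GGGCGG, the AP-1 site TGACTCA and the Grainyhead half-site AACCGG on either strand.

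Spint1 upstream: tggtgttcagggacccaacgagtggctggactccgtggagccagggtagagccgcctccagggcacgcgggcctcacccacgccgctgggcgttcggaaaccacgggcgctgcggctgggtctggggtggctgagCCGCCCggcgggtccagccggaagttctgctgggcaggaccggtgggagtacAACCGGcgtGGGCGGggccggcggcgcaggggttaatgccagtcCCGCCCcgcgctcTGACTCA

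In all, 7 short motifs were searched on both strands in the 300 bases around each start, which include 50 bases beyond it. In Spint1, 3 GC boxes began 115, 54 and 19 bases before the start, the Grainyhead half-site 63 bases before it, and the AP-1 site 6 bases before it. An ETS core (CCGGAA) lay 98 bases before the start, not in capitals, and a CCAAT box 37 bases after it, outside the printed stretch. The E-boxes CAGCTG and CACGTG, held by 16.3% and 7.15% of mouse promoters, had 0 matches. Of 32851 mouse promoters in the RefSeq table, 35.7% held the GC box, 5.20% the AP-1 site, 6.83% the Grainyhead half-site, 14.9% the ETS core and 37.4% the CCAAT box. The window had 28 CpG dinucleotides against a median of 7, and 85.8% of promoters had fewer. The GC content was 69.7%. A match is a run of letters and not a bound site. The table held windows for 6 of the 8 genes. GC boxes also numbered 3 in Spint2, in Met and in a window of Hpn, and 0 in Hgf, Hgfac and the other Hpn window. Met also held 1 AP-1 site, and a window of Hgf held 1 Grainyhead half-site. The ETS core had 0 matches in the partners. CpG dinucleotides numbered 34 in Met, 26 in Spint2, 7 and 6 in Hgf, 2 in Hgfac and 11 and 4 in Hpn. The GC boxes, AP-1 site, Grainyhead half-site and high CpG count were therefore not particular to Spint1.

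Spint2 (chromosome 7, 29256323 to 29281912, minus strand), the other inhibitor, was the better read of the pair in ctrl and did not pass the test. Its ctrl libraries a, b and c held 431, 497 and 756 reads, and its Ep400 cko libraries held 368, 444 and 378. The groups overlap, with ctrl a inside the range of Ep400 cko after scaling. Normalised reads averaged 554 ± 203 (SD, n = 3) in ctrl and 406 ± 41.4 (SD, n = 3) in Ep400 cko. The authors' deposited table gave a log2 fold change of -0.40 ± 0.26 (SE; adjusted p = 0.34; 95% interval -0.91 to 0.11). Among the Ep400 cko libraries, Spint2 was highest in b, where Spint1 was lowest, at 453 normalised reads against 375 in a and 391 in c. St14, Hpn and Met were also lowest in b, and Hgfac and Prss8 were lowest in c.

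Of the 4 proteases, none passed the test of the authors' comparison. St14 (chromosome 9, 31089402 to 31131853, minus strand), which encodes matriptase, had 152, 124 and 249 reads in ctrl a, b and c and 183, 107 and 133 in Ep400 cko a, b and c. The groups overlap, and the spread of either was larger than the difference: 172 ± 73.1 against 144 ± 39.0 normalised reads (SD, n = 3). Its deposited log2 fold change was -0.21 ± 0.32 (SE; adjusted p = 0.73; 95% interval -0.83 to 0.41).

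Prss8 (chromosome 7, 127925716 to 127930104, minus strand), which encodes prostasin, was close to unread. It had 5, 0 and 0 reads in ctrl and 8, 5 and 1 in Ep400 cko. At this depth no difference was detectable, and the gene lay under the authors' filter on low means (deposited mean 3.12, lowest tested mean 6.10). Hepsin, a transmembrane protease encoded by Hpn (chromosome 7, 31098725 to 31115290, minus strand), had 203, 430 and 275 reads in ctrl and 189, 136 and 173 in Ep400 cko. The lowest ctrl library lay inside the Ep400 cko range, and the other 2 lay above it. Normalised reads averaged 299 ± 127 (SD, n = 3) in ctrl and 170 ± 27.9 (SD, n = 3) in Ep400 cko. The authors' deposited log2 fold change of Hpn was -0.69 ± 0.30 (SE; unadjusted p = 0.0231, adjusted p = 0.12; 95% interval -1.28 to -0.09), so it did not pass after adjustment.

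Hgfac (chromosome 5, 35041509 to 35048461, plus strand), the HGF activator, had 72, 26 and 21 reads in ctrl and 95, 64 and 52 in Ep400 cko. One ctrl library, a, lay among the Ep400 cko libraries, and the other 2 were below all of them. The means were 37.3 ± 23.4 and 71.9 ± 22.2 normalised reads (SD, n = 3). The deposited log2 fold change was 0.66 ± 0.38 (SE; adjusted p = 0.27; 95% interval -0.09 to 1.41) in the authors' table.

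Hgf, the ligand (chromosome 5, 16553495 to 16620152, plus strand), was the most abundant of the 8 genes, with a deposited mean of 1974 normalised reads. It was too well read for its reads per library to be worked out. With reads taken as even within each group, its group means were 1316 in ctrl and 2632 in Ep400 cko, a ratio of 2.00. The authors' deposited table gave a log2 fold change of 0.79 ± 0.34 (SE; unadjusted p = 0.0208, adjusted p = 0.11; 95% interval 0.12 to 1.46), which did not pass. Met, the receptor (chromosome 6, 17463800 to 17573980, plus strand), had 217, 212 and 111 reads in ctrl and 239, 142 and 164 in Ep400 cko. Its groups cover nearly the same range, with means of 174 ± 52.4 and 186 ± 51.2 normalised reads (SD, n = 3). The deposited log2 fold change of Met was 0.08 ± 0.30 (SE; adjusted p = 0.90; 95% interval -0.50 to 0.66) in the authors' table, and its sign was not stable: with a trend on transcript length and GC content removed it was -0.17.

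**Figure D2:**
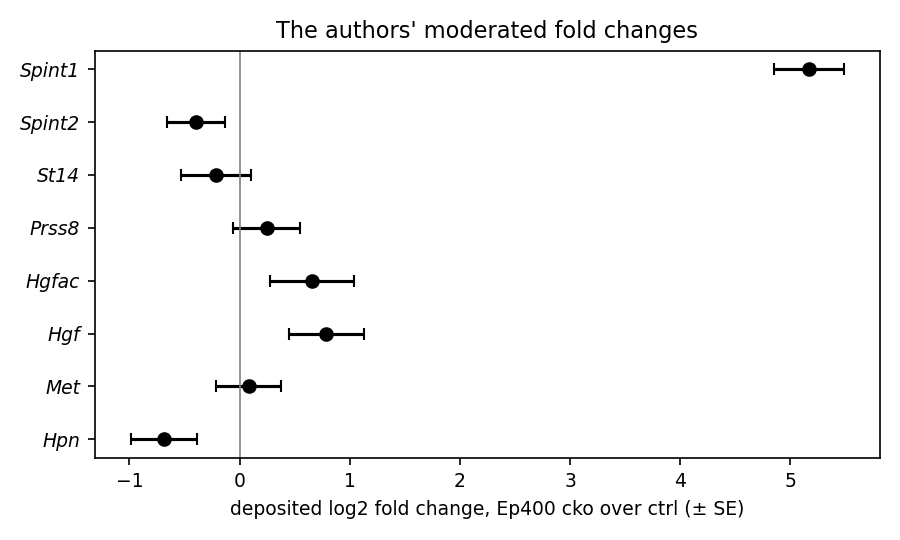
The authors' deposited log2 fold change of each of the 8 genes, Ep400 cko over ctrl, as points with bars of ± 1 SE. Spint1 lies at 5.17, and the other 7 lie between -0.69 (Hpn) and 0.79 (Hgf).

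Among the 7 tested genes, 1 passed an adjusted p of 0.05, and that is Spint1, whose choice used this contrast. Of all tested genes, 12.2% passed in either direction, 7.64% as higher and 4.61% as lower. The other 6 tested genes gave 0 calls by the authors' DESeq2 test, and 2 of the 6 (Hgf and Hpn) had an unadjusted p under 0.05. Of the 7 genes with reads per library, Spint1 was the 1 whose groups did not overlap. Among genes with a mean of 20 to 120 normalised reads, 26.7% had groups that did not overlap, 16.4% with Ep400 cko above and 10.3% with it below; of the 7 genes, Hgfac is the 1 in that range of means, so the share is no background for the others. The 7 tested genes had a median deposited log2 fold change of 0.08, with 4 of 7 above 0, and all tested genes had a median of -0.0025, with 49.8% above 0. The values of the 7 include Spint1, which was chosen for its rise, so their distance from those of all genes is no result about the partners.

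Divided by transcript length, the levels show how the order of the genes changed. In ctrl, Spint2 stood first at 400.5 normalised reads per kb of its longest coding transcript (range over libraries 277.5 to 562.5), and Hgf was close to it at 380 per kb, for which no spread over libraries is known. Hpn followed at 163 per kb (98.9 to 237), St14 at 52.9 (38.3 to 78.7), Met at 25.5 (16.8 to 31.4) and Hgfac at 17.5 (10.1 to 30.1). Spint1 came next to last in ctrl at 3.66 per kb (2.60 to 5.32), above Prss8 at 0.802 (0 to 2.41). Among these neighbours Met and Hgfac overlapped, and the other pairs with a known spread did not.

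In Ep400 cko, Hgf was first at 759 per kb and Spint1 second at 330 per kb (206 to 417). Spint2 followed at 293 per kb (271 to 327), inside the range of Spint1, so these 2 inhibitors did not differ beyond their spread. Hpn stood at 92.9 per kb (75.8 to 105), St14 at 44.3 (33.5 to 57.1), Hgfac at 33.7 (25.2 to 45.3), Met at 27.3 (21.3 to 35.7) and Prss8 at 2.57 (0.558 to 4.40). St14 overlapped Hgfac and Met, and Hgfac overlapped Met. The level of Spint1 per kb was 0.00915 times that of Spint2 in ctrl and 1.12 times in Ep400 cko. Against matriptase (St14) the ratio was 0.0693 in ctrl and 7.45 in Ep400 cko, and against hepsin (Hpn) it was 0.0224 and 3.55.

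**Figure D3:**
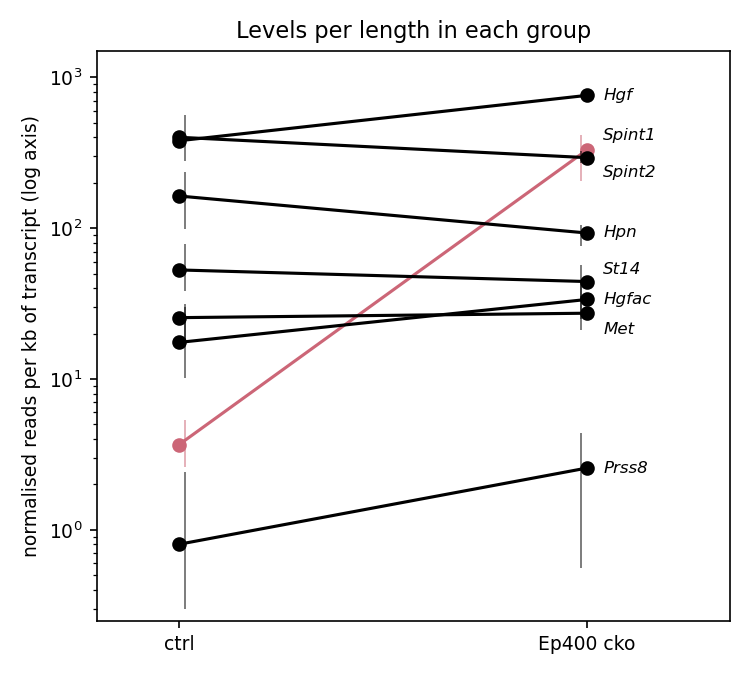
Mean normalised reads per kb of the longest coding transcript (log axis) in ctrl and Ep400 cko for the 8 genes, with thin lines for the range over 3 libraries, not known for Hgf; the ctrl range of Prss8 reaches 0, below the axis. Spint1, in red, goes from 3.66 to 330 per kb and ends beside Spint2 at 293.

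Within 100 kb of Spint1, GENCODE M21 lists 13 genes, of which 9 were tested. In the authors' DESeq2 comparison 0 of the 9 passed and 1 had an unadjusted p under 0.05, against 12.2% of all tested genes that passed; 9 genes are too few to be told apart from that share. The closest, Ppp1r14d, which encodes a regulatory subunit of a protein phosphatase, lies 7.46 kb before Spint1 and held 2, 1 and 2 reads in ctrl and 1, 2 and 0 in Ep400 cko. On the other side, Rhov, 19.7 kb away, held 23, 35 and 17 reads in ctrl and 32, 10 and 17 in Ep400 cko, with a deposited log2 fold change of -0.17 ± 0.41 (SE; adjusted p = 0.84). The groups overlap in both genes.

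Gchfr, 65.0 kb before Spint1, encodes the feedback regulator of GTP cyclohydrolase and had the largest deposited change of the 9, at -0.94 ± 0.35 (SE; adjusted p = 0.056), which did not pass. It held 76, 114 and 49 reads in ctrl and 30, 33 and 34 in Ep400 cko, so its groups did not overlap. Its mean of 55.4 lies in the range of 20 to 120, where 26.7% of genes had groups that did not overlap, 10.3% with Ep400 cko below. The Notch ligand gene Dll4 stood at -0.25 ± 0.32 (adjusted p = 0.68) among the authors' values, the trafficking gene Vps18 at -0.21 ± 0.17 (0.47) and the noncoding Gm14207 at -0.44 ± 0.41 (0.53). Zfyve19 was deposited at -0.09 ± 0.16 (0.77), Dnajc17 at 0.02 ± 0.20 (0.96) and Rmdn3 at -0.05 ± 0.14 (0.87). Gm14137 and Gm14138 were under the filter on low means, and Gm14175 is listed at 0. Dll4 and Gm14207, and Zfyve19 and Dnajc17, overlap in the annotation and can share reads, since the sources used here do not say whether counting used strand.

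**Figure D4:**
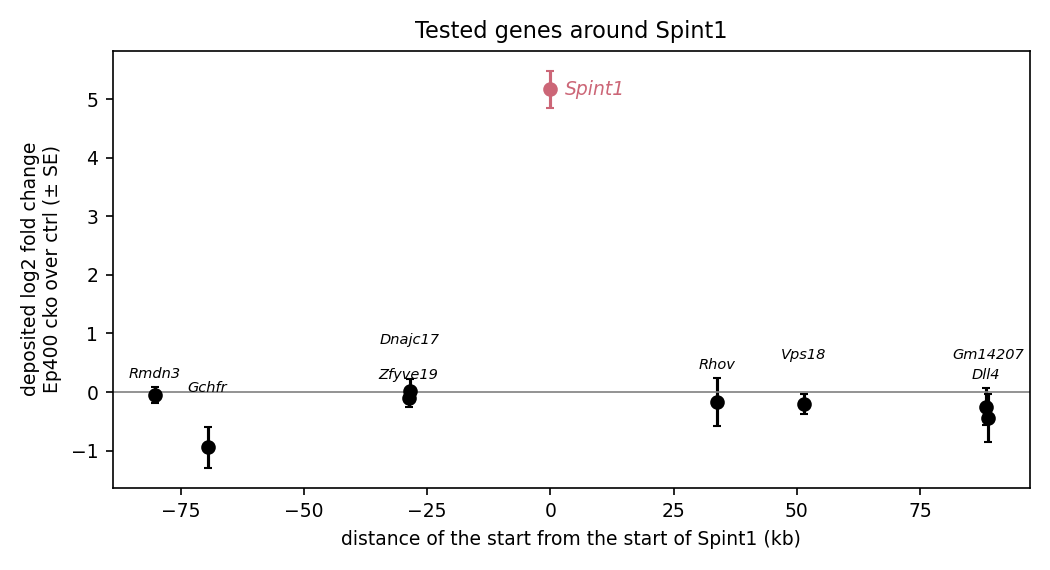
Deposited log2 fold change (± SE) of the 8 tested genes that start within 100 kb of the start of Spint1, and of Spint1 in red, against the distance of each gene's annotated start from that of Spint1 in kb. Spint1 stands at 5.17 and its neighbours between -0.94 (Gchfr) and 0.02 (Dnajc17).

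In the order of deposited log2 fold changes among the 15717 tested genes with a mean of at least 50, only Gm10654 (chromosome 8; to be experimentally verified in the annotation) stood above Spint1, at 5.20 ± 0.36 (SE). It held 2, 0 and 0 reads in ctrl and 227, 229 and 259 in Ep400 cko. The 5 below Spint1 were Gm21857, Gm12532, Gm45424, Trim12a and Cldn34c1, at deposited values of 5.02, 4.49, 4.39, 4.14 and 4.12. Trim12a, a gene of a family with close copies, held 1, 0 and 0 reads in ctrl and 85, 378 and 422 in Ep400 cko. The claudin gene Cldn34c1, also of a family with close copies, held 2, 0 and 0 against 185, 126 and 96. Gm12532, a lincRNA, held 7, 18 and 10 against 354, 1000 and 1029. Of these 7 genes, 3 are annotated as protein-coding, and they lie on chromosomes 2, 3, 7, 8, X and Y. Counting of near-identical copies may have split or merged reads of such genes.

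The genes most like Spint1 over the 6 libraries were found by Pearson's r of log2(normalised reads + 1) among 3202 genes with reads and a mean of at least 20. Apart from named genes, reads were worked out for means up to 120 alone, so better-read genes were not compared. They were Gm21857 (r = 0.993), a pseudogene on chromosome Y with 0 reads in each ctrl library and 174, 189 and 275 in Ep400 cko, Mdm4-ps (r = 0.989), Gm45424 (r = 0.985), Gm45493 (r = 0.985) and the antisense gene 4930481A15Rik (r = 0.984). The 6 values of each gene fall into the 2 groups, so r mainly records that separation, and the points share their libraries. Y-linked Ddx3y, at 0.06 ± 0.23 (SE; adjusted p = 0.91) in the authors' deposited table, and Xist, at 0.54 ± 0.34 (adjusted p = 0.32), did not pass. Of the partners with reads, Hgfac had r = 0.67 with Spint1, Met 0.12, St14 -0.15, Spint2 -0.49 and Hpn -0.67.

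Other protease inhibitors changed in both directions. Of 20 tested genes for Kunitz and other secreted or surface inhibitors, 3 rose, 3 fell and 14 did not pass, with a median deposited log2 fold change of -0.02; of all tested genes 7.64% rose and 4.61% fell. A2m, a broad protease trap of plasma, rose by 1.86 ± 0.33 (SE; adjusted p = 1.83e-06) in the authors' deposited table. Serpina3n, a serpin of reactive astrocytes, rose by 1.42 ± 0.25 (adjusted p = 1.53e-06) in the same deposited values. Serping1, an inhibitor of complement, fell by 0.74 (SE 0.23; adjusted p = 0.017) in that deposited table. The most abundant, Serpine2, which inhibits thrombin and plasminogen activators, was deposited at 0.56 ± 0.22 (adjusted p = 0.071) and did not pass. The rise of 10 astrocyte markers stands beside these values, and its part in them was not tested.

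Further genes of the serine protease family were mostly rare. Of 22 genes for type II transmembrane proteases and other Prss genes, not all of them for surface proteins, 11 were tested. Of these, 2 rose, 0 fell and 9 did not pass, with a median of 0.06, where 12.2% of all tested genes passed. Tmprss7 rose by 0.94 ± 0.28 (SE; adjusted p = 0.012) and Prss35, the most abundant, by 0.85 ± 0.27 (adjusted p = 0.021) in the authors' deposited table. A further list held other proteases, some of which can cleave the HGF precursor, and receptors of proteases. Of its 10 tested genes, 2 rose, 1 fell and 7 did not pass, with a median of -0.20, beside the same 12.2%. A place on this list does not show that a protein cleaves the precursor. F3, tissue factor, rose by 1.08 ± 0.29 (SE; adjusted p = 0.0050), the secreted protease Htra1 rose by 0.91 ± 0.25 (adjusted p = 0.0061), and the urokinase gene Plau fell by 0.50 (SE 0.16; adjusted p = 0.019) in the deposited table. Klkb1, the plasma kallikrein gene, is listed at 0.

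Known substrates and partners of matriptase and prostasin gave 1 gene up, 2 down and 6 not past the test of 9 tested, with a median of -0.29, where 12.2% of all tested genes passed. Epcam, an epithelial adhesion protein that matriptase cleaves, fell by 1.44 (SE 0.37; adjusted p = 0.0025) in the authors' deposited table. Igfbp7, a secreted protein also known from blood vessels and the most abundant of this list, fell by 0.96 (SE 0.18; adjusted p = 1.07e-05) in the deposited table. The growth factor gene Pdgfd rose by 0.66 ± 0.23 (adjusted p = 0.037) there, a call that is lost with no filter on low means (adjusted p = 0.053) and with the length and GC trend removed (adjusted p = 0.094). The mural and fibroblast markers, 9 of 12 of which fell, stand beside the value of Igfbp7, and their part in it was not tested.

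Genes of Met signalling and its co-receptors showed 4 up, 3 down and 24 not past the test of 31, with a median of -0.03; the shares of all tested genes were 7.64% up and 4.61% down. Lrig1, which lowers the amount of several receptor tyrosine kinases, Met among them, rose by 1.37 ± 0.28 (SE; adjusted p = 7.59e-05) in the authors' deposited table. Plxnb1, the semaphorin receptor that can associate with Met and the most abundant of the list, rose by 0.88 ± 0.20 (deposited adjusted p = 0.00059). Nrp1, another co-receptor, rose by 0.76 ± 0.18 (adjusted p = 0.00097), and Itgb4, an integrin subunit, fell by 0.92 (SE 0.28; adjusted p = 0.015), both as deposited. The adaptors Gab1 and Grb2 were among those that did not pass.

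Genes known to answer to Met or to damp the same kinase pathway showed 4 up, 3 down and 12 not past the test of 19 tested, with a median of -0.09, against 7.64% up and 4.61% down of all tested genes. The ETS factor gene Etv4 rose by 0.99 ± 0.25 (SE; adjusted p = 0.0026) and the feedback inhibitor Spry2 by 0.90 ± 0.27 (adjusted p = 0.011) in the authors' deposited table. Snai1, a repressor of epithelial genes, fell by 1.11 (SE 0.26; adjusted p = 0.00092), and Ets2 fell by 0.46 (SE 0.15; adjusted p = 0.021), both as deposited. Jun, the most abundant, was deposited at -0.40 ± 0.20 (adjusted p = 0.18). These genes answer to many growth factors and not to Met alone.

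Among 20 tested epithelial genes, 1 rose, 1 fell and 18 did not pass, with a median of -0.22; of all tested genes 12.2% passed. The riser was Grhl1, a Grainyhead factor and the most abundant of the list, at 1.26 ± 0.26 (SE; adjusted p = 7.66e-05) in the authors' deposited table, and the gene that fell was Epcam. Its relative Grhl2, which in epithelia activates junction genes, held 14, 21 and 24 reads in ctrl and 6, 0 and 8 in Ep400 cko, with a deposited log2 fold change of -0.78 ± 0.41 (SE; adjusted p = 0.21). The groups of Grhl2 did not overlap, with ctrl above. Its mean of 12.1 lies under the range for which the share of such genes was worked out, so no background is at hand. The cadherin gene Cdh1 held 106, 73 and 201 reads in ctrl and 93, 118 and 83 in Ep400 cko, which overlap.

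**Figure D5:**
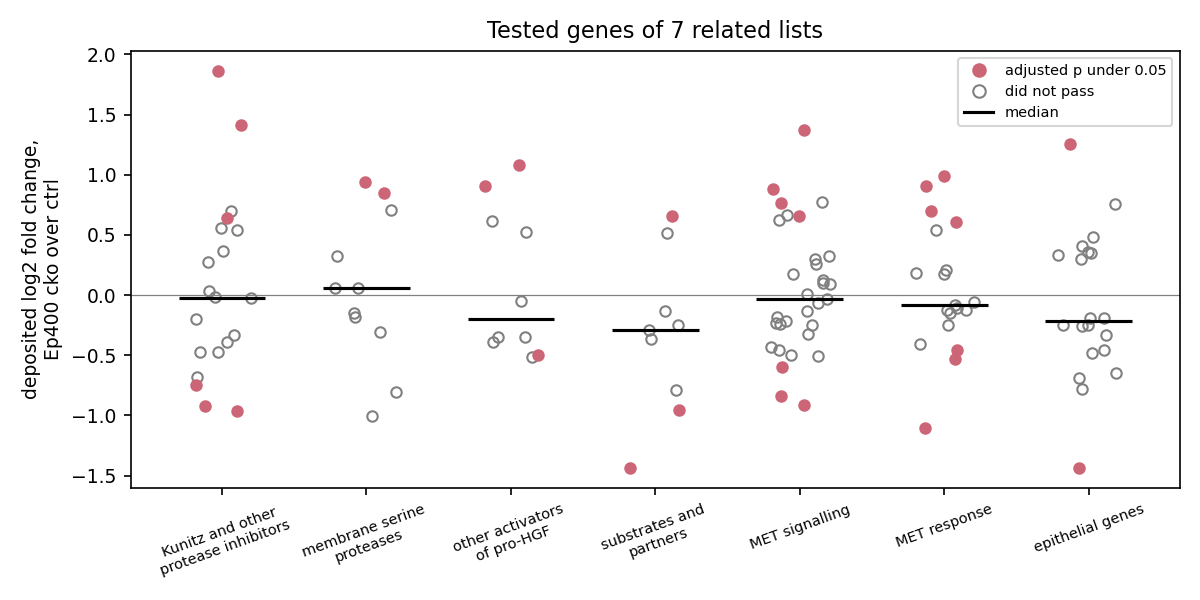
Deposited log2 fold changes, Ep400 cko over ctrl, of the tested genes of 7 lists around Spint1, with filled points for an adjusted p under 0.05 and a bar at each list's median. The medians lie between -0.29 (substrates and partners of matriptase and prostasin) and 0.06 (labelled membrane serine proteases, with other Prss genes). No point reaches the 5.17 of Spint1, which is not drawn. A place on the list labelled as activators of pro-HGF does not show that a protein cleaves the HGF precursor.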

How the data were processed

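Libraries were made with a stranded Illumina mRNA kit, per the labels' protocols. STAR 2.5.1, HTSeq and DESeq2 are named with mm10, in no stated order, per the submitters' processing notes. The authors deposited 1 table of their comparison with Ensembl release 85 identifiers and 0 columns of values per sample. Its mean over 6 libraries is a normalised count (signal), called raw in the authors' header, though the values are scaled. The authors' log2 fold change is moderated, the authors' score is the Wald statistic, and the authors' p-value is Benjamini-Hochberg adjusted over 20101 genes. The direction is given by the name of the deposited table and by no column.

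A design with edgeR needs values per sample, so the authors' test was used as the fallback. Whole reads were worked out per library: a deposited mean is a sum of whole reads times the worth of 1 read in each library. These worths were taken from genes with 1 read in all and refined on 358 distinct means of genes with few reads. A set of reads also had to give the deposited fold change and SE within 0.002 reads. Genes with all their reads in 1 library gave that library's group, through their deposited direction. Of 3173 tested genes with a mean of 20 to 120, 3170 had exactly 1 set, and 3 had none; the named genes with a mean under 500 were solved likewise. Group means of genes read too often were worked out with reads even within a group. In 318 solved genes with a mean of at least 100 this changed the log2 ratio by 0.0010 (median). The change can be larger where reads are uneven: Ermn had group means of 28.7 in ctrl and 62.0 in Ep400 cko by its reads, and 42.2 and 48.5 with even reads. The procedure was tested on simulated data. Lengths, positions and types are from GENCODE M21 (GRCm38, the mm10 assembly), which matched 48058 genes, and promoter windows are RefSeq's (GRCm38.p6); 95% intervals are the log2 fold change with the normal quantile times its SE. Python 3.11.15, scipy 1.17.1 and statsmodels 0.14.6 were used.

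The 8 genes and all lists were chosen with earlier results of these data known. Named are the 8 genes; up to 4 passing genes with the smallest adjusted p and the most abundant gene of each pathway list; genes within 100 kb of Spint1; 5 tested genes with a mean of at least 50 on either side of it in the order of fold changes; and the 5 most like it over the libraries. Grhl2, Cdh1, Gab1, Grb2, Klkb1, Ddx3y, Xist and the cell markers lie outside this rule or were added after their values were seen. Some genes that the rule names are left out of the text. P-values rest on the authors' Wald statistic for 3 against 3 samples, a moderated fold change over an SE from a fitted model, and do not themselves measure the spread between samples.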

Additional observations from a re-analysis of the deposited data

How the results depend on the processing

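Of the 6 tested members other than Spint1, none passed under the authors' filter, no filter on low means or removal of a length and GC trend, nor did the 5 with a mean of at least 80 when that was the filter, which leaves out Hgfac; the lowest adjusted p among them was 0.095 (Hgf, mean of at least 80). The value of Spint1, whose choice used this contrast, moved with the moderation of the deposited fold change: as a ratio of mean normalised reads, the log2 fold change of Spint1 was 6.49 against 5.17. With the length and GC trend removed, Met turned to -0.17 (adjusted p = 0.79); the cause was not tested. As ratios of reads, leaving out 1 library at a time gave log2 values of 6.21 to 6.76 for Spint1, -0.65 to -0.12 for Spint2, -0.48 to 0.15 for St14, 0.66 to 1.57 for Hgfac, -0.14 to 0.27 for Met, -1.07 to -0.45 for Hpn and 0.85 to 3.40 for Prss8, whose highest value is without ctrl a, the 1 ctrl library with reads. The sign of 2 of these ratios turned: St14 was 0.15 without ctrl c against -0.25 with all libraries, and Met was -0.13 without ctrl c and -0.14 without Ep400 cko a against 0.10. The number of genes past the threshold was 2462, and 2103 with no filter, 2370 with the stricter filter and 2093 with the trend removed. Depth limits Prss8, Ppp1r14d and Spint1 in ctrl, where 12 reads or fewer were seen per library. No paired analysis was possible because the table has no columns per sample and the libraries worked out from it carry no replicate number.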
